A study of Mus musculus with 28 samples.

Results

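Transforming growth factor β (TGF-β) arrests many epithelial cells in the G1 phase of the cell cycle. Here 10 genes, grouped as its cytostatic and proliferation targets, were followed in a single mark, acetylation of histone H3 at lysine 27 (H3K27ac). The genes were the cyclin-dependent kinase inhibitors Cdkn1a, Cdkn1b, Cdkn2a and Cdkn2b, the transcription factors Myc and E2f1, the cyclins Ccnd1, Ccnd2 and Ccne1, and the phosphatase Cdc25a. A peak was given to a gene when its summit, the base of highest signal, lay within 100 kb of a protein-coding start site of that gene and nearer to it than to the start site of any other protein-coding gene. The 10 genes, of 22372 protein-coding genes in the annotation, held 981 of the 893719 peaks in the 15 peak lists. Of these, 129 lay in a promoter, meaning the 1000 bp before a start site and the 100 bp after it, and 852 lay outside promoters and were called distal. Overlapping peaks of different libraries were joined into regions, which gave 80 member regions of 89050. The farthest peak given to a member lay 95.2 kb from the Ccnd1 start site, and the nearest one left out lay 102.2 kb from that of Cdkn2b, at pileup percentiles of 0.179 and 19.3 of their libraries.

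The cells were the E9 subclone of NMuMG, an untransformed mouse mammary gland epithelial line that undergoes an epithelial-mesenchymal transition (EMT) when exposed to TGF-β. Cells were taken untreated (0h) or after 4h or 24h of TGF-β at 2 ng/ml, each with the solvent DMSO. ERKi 4h and ERKi 24h cells had the same TGF-β treatment but were given 25 µM UO126, an inhibitor of the kinase MEK directly upstream of ERK, 30 min before TGF-β. Each of the 5 conditions had 3 H3K27ac libraries, and no ERKi library without TGF-β was analysed here, so the inhibitor was compared at each time in TGF-β-treated cells only. A single subclone was used, and nothing in the labels says that replicates came from separate cultures, so the p-values measure the spread between these samples, which may be technical. The 10 RNA-seq samples and 3 input samples were not analysed here.

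H3K27ac is deposited at active promoters and enhancers, so its height over a gene's start site and over nearby regions describes the state of the regulatory DNA and not the amount of transcript. In the cytostatic response of epithelial cells, SMAD complexes raise Cdkn2b and Cdkn1a, whose products p15 and p21 inhibit cyclin-dependent kinases, and lower Myc, which otherwise represses both inhibitors. ERK signalling acts on the other side of the same switch: it raises Myc and Ccnd1, and cyclin D and cyclin E with their kinases inactivate the retinoblastoma protein and release E2F factors such as E2f1, while Cdc25a removes inhibitory phosphates from the cyclin-dependent kinases.

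The sequences below are the 200 bases around the summits of 7 regions on which the results turn, shown so that the DNA under each changed peak can be read. They were taken from, for each gene and comparison, the region with the lowest adjusted p among those that passed the test, and the regions with a peak in every library of one group and in none of the other. Bases were read from the mm9 assembly (NCBI build 37), plus strand, 5′ to 3′, and capitals mark matches on either strand to the letters TGANTCA (AP-1), GTCTAGAC (a palindromic SMAD site), CCGGAAGT (ETS), ACATTCC (TEAD), TGTGGTT (RUNX), CACGTG (the MYC E-box) or TTTNGCGC (E2F). None of the windows overlapped an annotated exon.
Cdkn2b, 82.5 kb upstream, chr4:89039299-89039498: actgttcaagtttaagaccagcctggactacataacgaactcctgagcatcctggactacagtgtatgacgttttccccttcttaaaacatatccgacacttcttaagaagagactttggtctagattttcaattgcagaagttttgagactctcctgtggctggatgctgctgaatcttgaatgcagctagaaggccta
Cdkn2a, 24.4 kb downstream, chr4:88903575-88903774: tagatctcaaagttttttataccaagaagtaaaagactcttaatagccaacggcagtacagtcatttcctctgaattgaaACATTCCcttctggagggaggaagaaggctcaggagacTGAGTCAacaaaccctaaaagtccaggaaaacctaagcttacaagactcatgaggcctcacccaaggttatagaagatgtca
Ccnd1, 54.9 kb upstream, chr7:152180592-152180791: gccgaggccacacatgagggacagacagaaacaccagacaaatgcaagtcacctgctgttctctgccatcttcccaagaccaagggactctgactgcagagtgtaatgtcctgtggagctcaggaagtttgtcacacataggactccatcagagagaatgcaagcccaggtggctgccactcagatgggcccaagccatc
Ccnd1, 31.0 kb upstream, chr7:152156668-152156867: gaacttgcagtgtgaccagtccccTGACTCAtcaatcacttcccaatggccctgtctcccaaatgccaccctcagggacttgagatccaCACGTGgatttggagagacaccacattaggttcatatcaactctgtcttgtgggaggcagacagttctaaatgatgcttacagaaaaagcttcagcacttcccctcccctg
Ccnd1, 2.2 kb upstream, chr7:152127873-152128072: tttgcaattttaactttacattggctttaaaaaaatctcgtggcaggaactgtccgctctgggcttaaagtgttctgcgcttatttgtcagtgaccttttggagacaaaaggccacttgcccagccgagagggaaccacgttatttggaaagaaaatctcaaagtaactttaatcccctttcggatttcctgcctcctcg
Ccne1, 0.4 kb upstream, chr7:38892857-38893056: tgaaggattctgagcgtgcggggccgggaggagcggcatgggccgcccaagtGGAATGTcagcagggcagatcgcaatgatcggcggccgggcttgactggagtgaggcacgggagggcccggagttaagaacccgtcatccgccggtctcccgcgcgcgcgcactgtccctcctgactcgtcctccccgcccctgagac
E2f1, 0.5 kb upstream, chr2:154395985-154396184: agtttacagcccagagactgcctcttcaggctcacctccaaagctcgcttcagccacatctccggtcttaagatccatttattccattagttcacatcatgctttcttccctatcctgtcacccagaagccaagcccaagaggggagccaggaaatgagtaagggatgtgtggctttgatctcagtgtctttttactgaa

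The window 31.0 kb upstream of Ccnd1 held an AP-1 match and an E-box match, that 24.4 kb downstream of Cdkn2a an AP-1 and a TEAD match, and that at the Ccne1 promoter a TEAD match. Over the 26934 regions with a peak in all 15 libraries, 3.84% of such windows held the AP-1 letters, 2.27% the TEAD letters, 2.77% the E-box, 2.9% the RUNX, 0.546% the E2F, 0.457% the ETS and 0.137% the palindromic SMAD letters. Of the 34 such windows of member regions, 1 each held the AP-1, TEAD, RUNX, ETS and E2F letters (2.94% each). The E-box was held by 2 (5.88%) and the palindromic SMAD letters by none. All 80 member regions include those without a peak in some library, so their shares are not like the shares above. Of these 80 windows, 6 held the AP-1 letters (7.5%), 4 TEAD (5%), 3 each RUNX and the E-box (3.75%), 1 each ETS and E2F (1.25%), and none the palindromic SMAD letters. The windows of the 34 member regions with a peak in all libraries had a median GC content of 53.8%, beside 54% over all such regions. A match is a description of the letters, and a window without one says nothing about binding of the factor.

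The libraries held 50445 to 69180 peaks each, with median pileups, the number of reads stacked at a peak's summit, of 38 to 57. No read totals were used, and the pileup carries the depth of its library. Within a library, pileups are given as percentiles among its peaks. Between libraries they were quantile-normalised and are then called normalised pileups, in reads. The cells and their treatment were read off marker genes by peaks within 2500 bp of a start site. Of 11 epithelial genes, 4 had a peak there in every library, Cldn3, Cldn4 and Grhl2 in some, and Epcam, Cldn7, Esrp1 and Ovol1 in none. The epithelial percentiles summed to 329 to 344 at 0h, 376 to 407 at 4h and 418 to 440 at 24h. With the inhibitor they summed to 354 to 402 at 4h and 411 to 470 at 24h, and these sums were not tested. None of the 4 endothelial or 3 adipocyte genes had a peak there. Of 3 muscle genes, Myod1 and Des had none and Myog had one in some libraries. The muscle percentiles summed to at most 31.6, at 24h, and to 0 at ERKi 24h. Of 3 neuronal genes, Syp and Neurod1 had none and Rbfox3 had one in some libraries, with sums of at most 2.09, at ERKi 24h. The percentiles of 5 blood and immune genes, of which Ptprc, Cd68 and Cd3e had no peak, summed to 0 to 14.3 in the 0h, 4h, 24h and ERKi 4h libraries and to 7.07 to 49.4 in the ERKi 24h libraries, and the part of this in the ERKi 24h results was not tested. Fosl1, a gene induced by ERK, fell by 1.69 on the log2 scale (SE 0.13) at ERKi 24h against 24h, with a limma adjusted p of 2.35e-05, the only one of 5 tested ERK-induced genes to pass there. The differences of Etv5, Dusp6, Spry2 and Egr1 were -0.69 (adjusted p = 0.121), -0.12, -0.23 and -0.20, and none of the 5 passed in the other comparisons. With Etv4, the percentiles of 6 ERK-induced genes summed to 496 to 522 at 0h, 489 to 528 at 4h and 503 to 544 at 24h. With the inhibitor they summed to 411 to 444 at 4h and 365 to 424 at 24h, with no test.

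By pileup, the start sites of most of the 10 genes lay under high peaks in untreated cells. At 0h, the highest peak within 2500 bp of a start site reached a pileup percentile of 98.6 ± 0.745 (SD, n = 3) for Myc and 98.0 ± 0.436 for Cdkn1a. Ccnd2 followed at 95.9 ± 2.22, Cdkn1b at 94.2 ± 3.70, Ccnd1 at 94.2 ± 3.50, Cdkn2a at 92.5 ± 2.69 and Cdkn2b at 92.5 ± 1.04. The values of each neighbouring pair in that order overlapped. Cdc25a, at 84.0 ± 6.81, lay below Cdkn2b with no overlap, and E2f1 at 72.6 ± 7.61 and Ccne1 at 68.1 ± 5.05 had the lowest start-site pileups and overlapped with each other. By fold enrichment, which divides the pileup by the local background that the peak caller estimated, the order was another one. Ccne1 was then the highest, at a percentile of 87.2 ± 6.06, followed by Cdc25a at 84.0 ± 3.81, while Cdkn1b was at 45.2 ± 10.9, Myc at 25.6 ± 7.41 and Ccnd1, the lowest, at 10.4 ± 3.86.

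**Figure D1:**
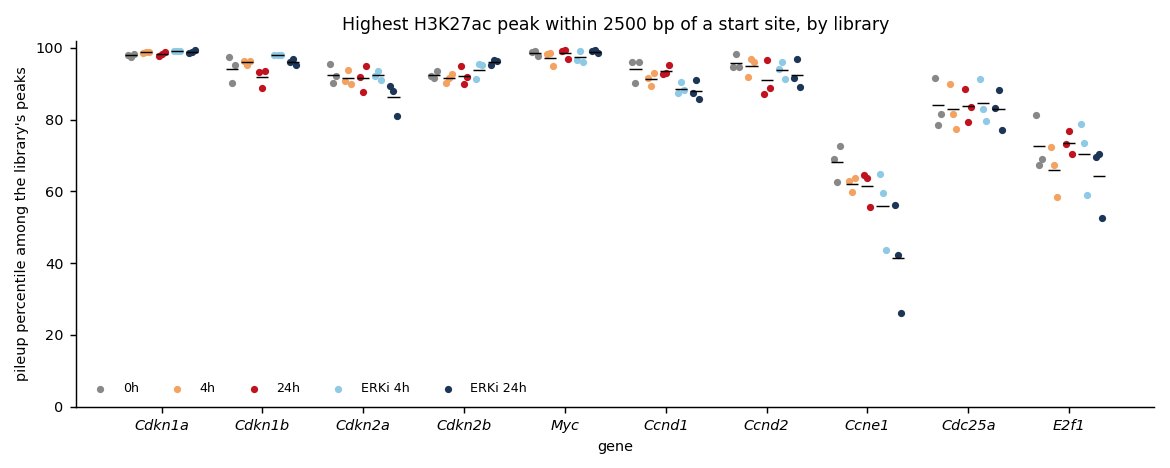
Pileup percentile of the highest H3K27ac peak within 2500 bp of a start site (vertical axis, percentile among the peaks of the library) for the 10 genes (horizontal axis); each point is 1 library, coloured by condition, and each line the mean of 3. Cdkn1a and Myc stay near the top in all 15 libraries, at 97.6 to 99.4 and 95.1 to 99.5, whereas Ccne1 spans 26.0 to 72.6 with its lowest values at ERKi 24h.

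By pileup, Cdkn1a lay between 97.6 and 99.4 in all 15 libraries and Myc between 95.1 and 99.5, so near the upper end of the scale that only a small rise could show. Cdkn1a had 98.0, 97.6 and 98.4 at 0h and 98.7, 98.8 and 99.0 at 4h, without overlap and with no test. Its values by fold enrichment, given below, moved the other way. By fold enrichment the Myc means after 4h and 24h of TGF-β were 24.4 and 20.3. Cdkn2b was at 92.5 and 92.3 by pileup at 0h and 24h, and by fold enrichment at 80.0, 79.6 and 87.3 at 0h and 59.4, 57.9 and 61.5 at 24h, without overlap and with no test. Ccne1, which encodes cyclin E1, had the widest spread by pileup, with 69.2, 62.7 and 72.6 at 0h, 64.6, 63.8 and 55.8 at 24h, and 56.1, 42.3 and 26.0 at ERKi 24h. Its ERKi 24h values all lay below its 0h values but overlapped those at 24h.

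In the narrower promoter window, 8 of the 10 genes had a peak in some library, Cdkn1a and Ccnd2 had none, and 6 had one in all 15 and could be tested. None of the 6 promoters passed the test (limma, adjusted p under 0.05 over 4351 promoters) in any comparison, where 0.046% of all promoters passed at 4h against 0h, 0.46% at 24h against 0h, 0% at ERKi 4h against 4h and 0.712% at ERKi 24h against 24h. An unadjusted p under 0.05 was reached by 1, 0, 0 and 2 of the 6 in these comparisons, and by 237, 441, 158 and 565 of the 4351 promoters. Of the 6, the Cdkn2b promoter was higher at 4h (log2 difference 0.38, SE 0.12) and the Ccne1 and E2f1 promoters were lower at ERKi 24h against 24h. With the replicate number as a block, since libraries of the same number deviated together, these last 2 promoters fell, Ccne1 by 0.80 on the log2 scale (SE 0.19, limma adjusted p = 0.0243) and E2f1 by 0.80 (SE 0.17, adjusted p = 0.0173), where 6.73% of all promoters passed.

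By percentile in that window, with no test, the groups did not overlap for 2 genes at 4h against 0h, 0 at 24h against 0h, 1 at ERKi 4h against 4h and 2 at ERKi 24h against 24h. Over the 10215 genes with a promoter peak in some library the groups did not overlap for 7.23%, 9.8%, 6.32% and 10.4%. Cdkn2b was higher at 4h (69.8 ± 1.87) than at 0h (61.8 ± 3.24), Myc lower (92.4 ± 2.46 against 96.3 ± 0.816). Cdkn1b, which encodes p27, was higher with the inhibitor at both times, at 97.7 ± 0.468 against 95.4 ± 0.930 at 4h and 95.1 ± 0.813 against 91.1 ± 2.34 at 24h. E2f1 was lower at ERKi 24h (52.8 ± 2.38) than at 24h (72.3 ± 1.62). Within 2500 bp of a start site the mean of Cdkn2b was 0.927 lower at 4h than at 0h, the opposite direction, and by fold enrichment that of Cdkn1b was 1.60 lower at ERKi 24h than at 24h.

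Most of the member peaks lay away from the start sites. Of the 80 member regions, 71 lay outside promoters, 47 in intergenic DNA, 25 in introns and 8 in exons or untranslated regions by the position of their summits. A peak was present in all 15 libraries in 34 of them (42.5%, beside 30.2% of all regions) and in only 1 library in 14 (17.5%, beside 22.6%). The 34 regions were tested together with the other 26900 by limma on normalised pileups, which describe a bulk sample, so that fewer cells carrying the mark and less of it per cell cannot be told apart.

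At 4h against 0h, 0 of the 34 member regions passed, where 3.9% of all regions did. An unadjusted p under 0.05 was reached there by 2 member regions and by 4037 of all 26934 regions. At 24h against 0h, 3 rose and 3 fell, beside 18.6% of all regions. At ERKi 4h against 4h, 0 passed, beside 0.594% of all regions. An unadjusted p under 0.05 was reached there by 5 member regions and by 1921 of all 26934 regions. At ERKi 24h against 24h, 1 rose and 3 fell, beside 8.61% of all regions. The 9 regions that passed in a comparison were 2 of the 8 in promoters and 7 of the 26 outside them. The member medians of the log2 difference were -0.09, 0.01, -0.02 and -0.19 in the same order, beside -0.06, -0.05, 0.02 and 0.01 over all regions. With the replicate block, which uses the pairing of libraries by number, 0 rose and 1 fell, 3 rose and 5 fell, 0 rose and 3 fell, and 1 rose and 9 fell, where 16.7%, 35.2%, 4.83% and 25.9% of all regions passed. Of the 22 member regions left when only peaks with a −log10 q of at least 10 were used, 1 passed at 24h against 0h and 0 at ERKi 24h against 24h. Of all 17594 regions left then, 1044 rose and 604 fell at 24h against 0h, and 203 rose and 323 fell at ERKi 24h against 24h. The effect of the inhibitor at 24h minus that at 4h was tested too, and 0 of the 34 member regions passed, with 1 at an unadjusted p under 0.05, so that no member region was shown to respond differently to the inhibitor at the later time. Of all 26934 regions, 0 rose and 0 fell in that test, and 1657 had an unadjusted p under 0.05. Comparisons with 0h share the 0h libraries, and the ERKi comparisons share the 4h or 24h libraries with them.

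**Figure D2:**
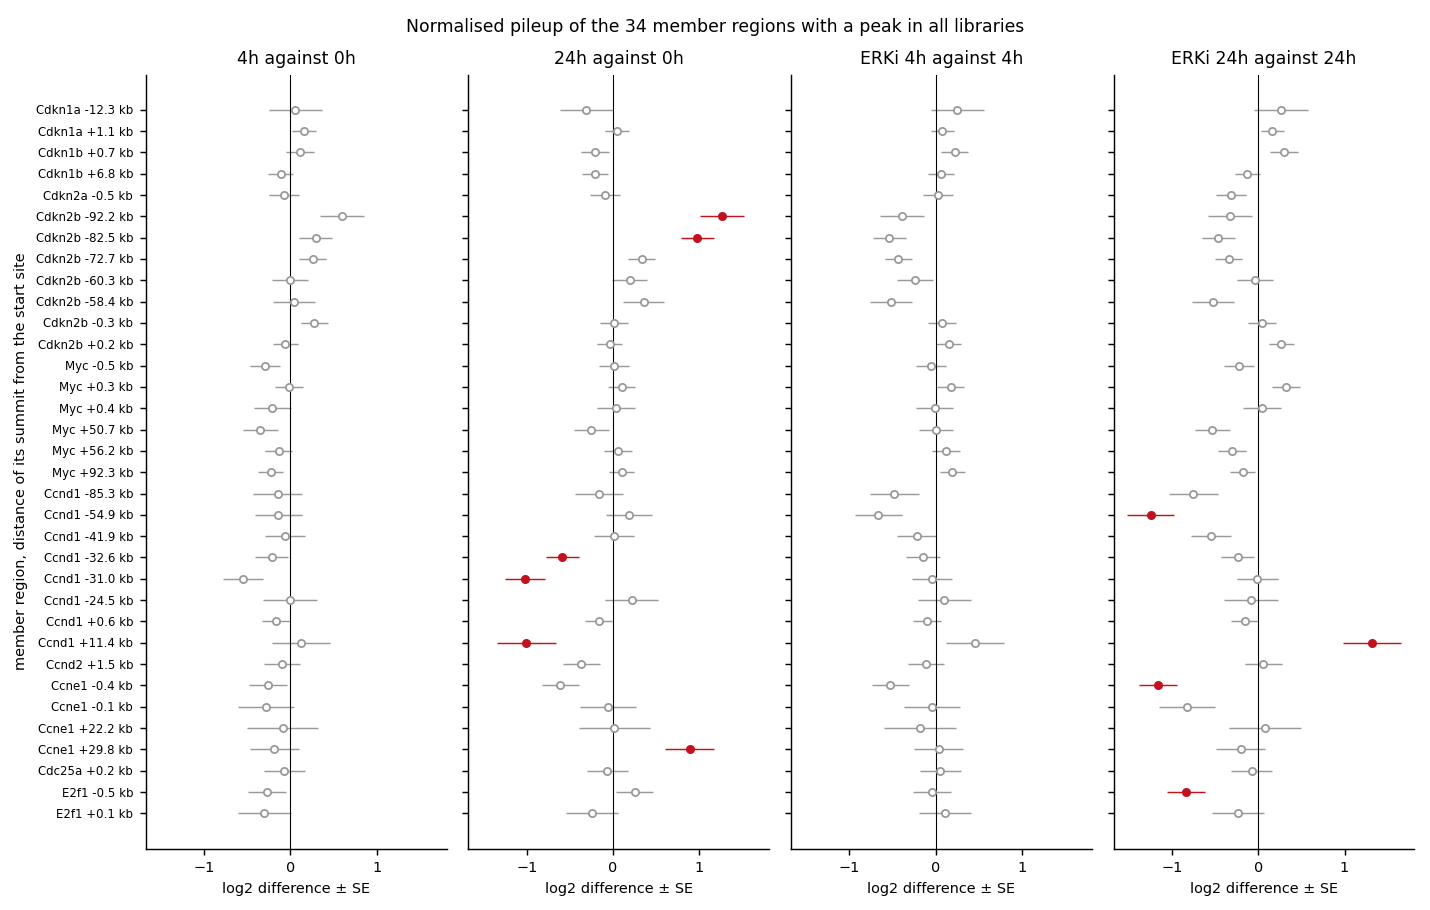
Log2 difference of the normalised pileup (horizontal axis, bars are the standard error from limma) for the 34 member regions with a peak in all libraries (vertical axis, by gene and distance of the summit from the start site, negative is upstream), in the 4 comparisons; filled red points passed an adjusted p of 0.05. No point is filled in the comparisons at 4h, 6 are filled at 24h against 0h and 4 at ERKi 24h against 24h.

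Among the inhibitors, the regions that rose were nearest to the start site of Cdkn2b, each more than 50 kb upstream. Cdkn2b, which encodes p15 and lies on chromosome 4 (mm9 chr4:88952198-88956941, minus strand), had 11 regions, 7 of them in all libraries and 5 of those 58.4 to 92.2 kb upstream. In the intergenic region 82.5 kb upstream (chr4:89038781-89040450), normalised pileups were 41.3, 45.3 and 59.3 at 0h, 52.7, 52.7 and 73.7 at 4h, and 81.1, 86.3 and 121 at 24h. With the inhibitor they were 41.4, 40.1 and 40.2 at 4h and 67.8, 68.5 and 69.6 at 24h. All 24h libraries lay above all 0h libraries, and each ERKi library lay below every library of its own time without the inhibitor. The region rose at 24h by 0.98 on the log2 scale (SE 0.19, limma adjusted p = 0.00188), a fold of 1.97. Its difference was -0.54 (SE 0.19) at ERKi 4h and -0.46 (SE 0.19, adjusted p = 0.166) at ERKi 24h, and both passed with the replicate block (adjusted p = 0.0288 and 0.0173).

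The region 92.2 kb upstream of Cdkn2b (chr4:89048327-89050252), in an intron of the predicted gene Gm12609, had normalised pileups of 22.9, 14.0 and 18.7 at 0h, 20.7, 31.9 and 31.9 at 4h, and 56.1, 30.3 and 49.5 at 24h. It rose at 24h by 1.27 (SE 0.26, limma adjusted p = 0.00234), a fold of 2.41, with no overlap between the groups. At ERKi 24h its values of 37.8, 31.9 and 35.7 lay within the range at 24h. The region 58.4 kb upstream fell by 0.52 at ERKi 4h and by 0.53 at ERKi 24h with the replicate block only (adjusted p = 0.0372 and 0.00864). The regions at the Cdkn2b start site had log2 differences of 0.01 and -0.04 at 24h against 0h.

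The rise of these upstream regions was one of pileup. By fold enrichment the difference at 24h against 0h was 0.09 at 82.5 kb (adjusted p = 0.793) and 0.30 at 92.2 kb (adjusted p = 0.443), while the 2 Cdkn2b start-site regions fell by 0.57 and 0.44 (adjusted p = 0.0100 and 0.0118). Neither upstream call was lost when any library was left out, the adjusted p lying at 0.00123 to 0.0133 and at 0.000541 to 0.0176.

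Cdkn2a, the neighbour of Cdkn2b that encodes p16 and p19Arf (chr4:88920377-88940557, minus strand), gained distal peaks at 24h. It had 2, 1 and 1 distal peaks in the 0h libraries, 2, 2 and 2 at 4h, and 6, 4 and 7 at 24h. With the inhibitor there were 3, 1 and 1 at 4h and 6, 2 and 6 at 24h. All 24h libraries lay above all 0h libraries, and the ERKi 24h libraries spanned the range from the 4h level to that at 24h. The number rose at 24h by 1.51 on the log2(number + 1) scale (SE 0.35, limma adjusted p = 0.0103), and the bases they covered, not tested, were 636 ± 510 at 0h and 2628 ± 913 at 24h (SD, n = 3). With the start sites of all transcripts the rise was 0.81 (SE 0.31, adjusted p = 0.0982) and did not pass. With only peaks of a −log10 q of at least 10, Cdkn2a had too few peaks to be tested, with 1, 0 and 0 at 0h and 5, 2 and 4 at 24h, which did not overlap.

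Of the 10 genes, 9 had enough distal peaks to be tested by their number, and Cdkn2a was the only one to pass, at 24h against 0h. At an unadjusted p under 0.05, Cdkn1a was higher at 24h against 0h (0.44, SE 0.19) and Ccne1 lower at ERKi 4h against 4h (-0.52, SE 0.24), and no member was past it at 4h against 0h or at ERKi 24h against 24h. Over the 6439 genes tested, 1.4% passed at 4h against 0h, 14.8% at 24h against 0h, 0.0311% at ERKi 4h against 4h and 0.714% at ERKi 24h against 24h. An unadjusted p under 0.05 was reached by 745, 1882, 310 and 935 of the 6439 genes in the same order. With no test, the numbers did not overlap between groups for 0 of the 10 genes at 4h against 0h, 1 at 24h (Cdkn2a), 1 at ERKi 4h against 4h (Ccne1, lower) and 1 at ERKi 24h against 24h (Ccnd1, lower), beside 5.16%, 16.2%, 2.35% and 7.04% of 14371 genes.

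**Figure D3:**
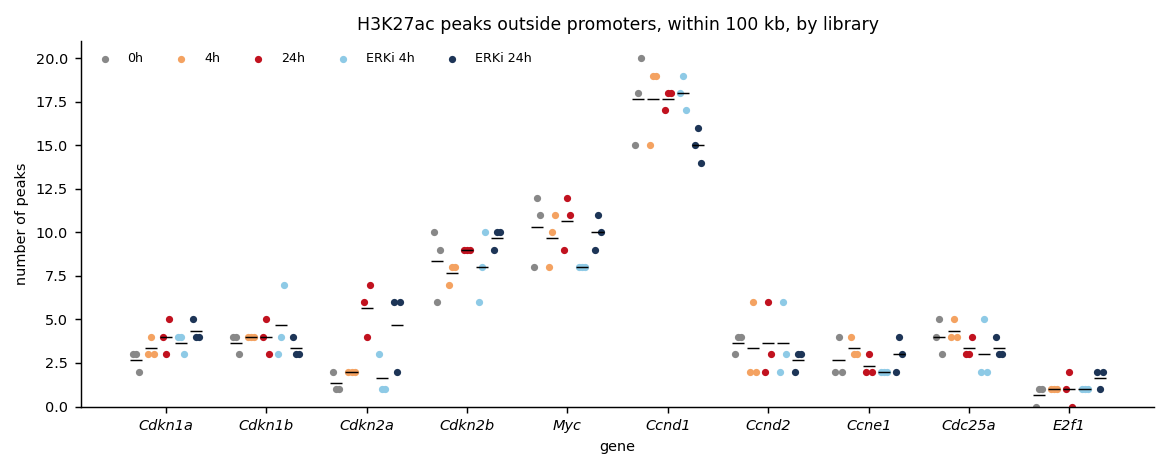
Number of distal H3K27ac peaks (vertical axis) given to each of the 10 genes (horizontal axis); each point is 1 library, coloured by condition, and each line the mean of 3. Cdkn2a has 1 or 2 peaks in the 0h libraries and 4 to 7 at 24h, and Ccnd1 has 17 or 18 at 24h and 14 to 16 at ERKi 24h.

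The new Cdkn2a peaks included a region 24.4 kb downstream of its start site (chr4:88903180-88903844), in an intron of the predicted gene Gm12606, which had a peak in 3 of 3 libraries at 24h and at ERKi 24h and in 0 of 3 at 0h, 4h and ERKi 4h. It was the only member region with a peak in every 24h library and no 0h library, a pattern found in one direction or the other in 6.99% of all regions. Its peaks were low, at pileup percentiles of 22.7, 21.7 and 12.1 at 24h and 16.3, 9.87 and 4.46 at ERKi 24h. A region 47.4 kb downstream was called in 2 libraries each of 24h and ERKi 24h and in no other. The regions 7.2 and 8.1 kb upstream had percentiles of 65.1, 51.2 and 66.3, and of 54.8, 61.5 and 59.2, at 24h, against at most 27.7 and 11.9 at 0h. Both lay between the start sites of Cdkn2a and Cdkn2b, and that at 8.1 kb about midway. The number of distal peaks given to Cdkn2a thus depends in part on the rule of the nearest start site. When regions with a peak in at least 8 libraries were tested, the region 7.2 kb upstream, which had a peak in every 0h and 24h library but not in every ERKi library, where the lowest pileup was filled in, rose at 24h by 1.31 (adjusted p = 0.0405). The region 8.1 kb upstream had a peak in 1 of 3 libraries at 0h and 3 of 3 at 24h, and its test, which fills in missing values, is not given.

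**Figure D4:**
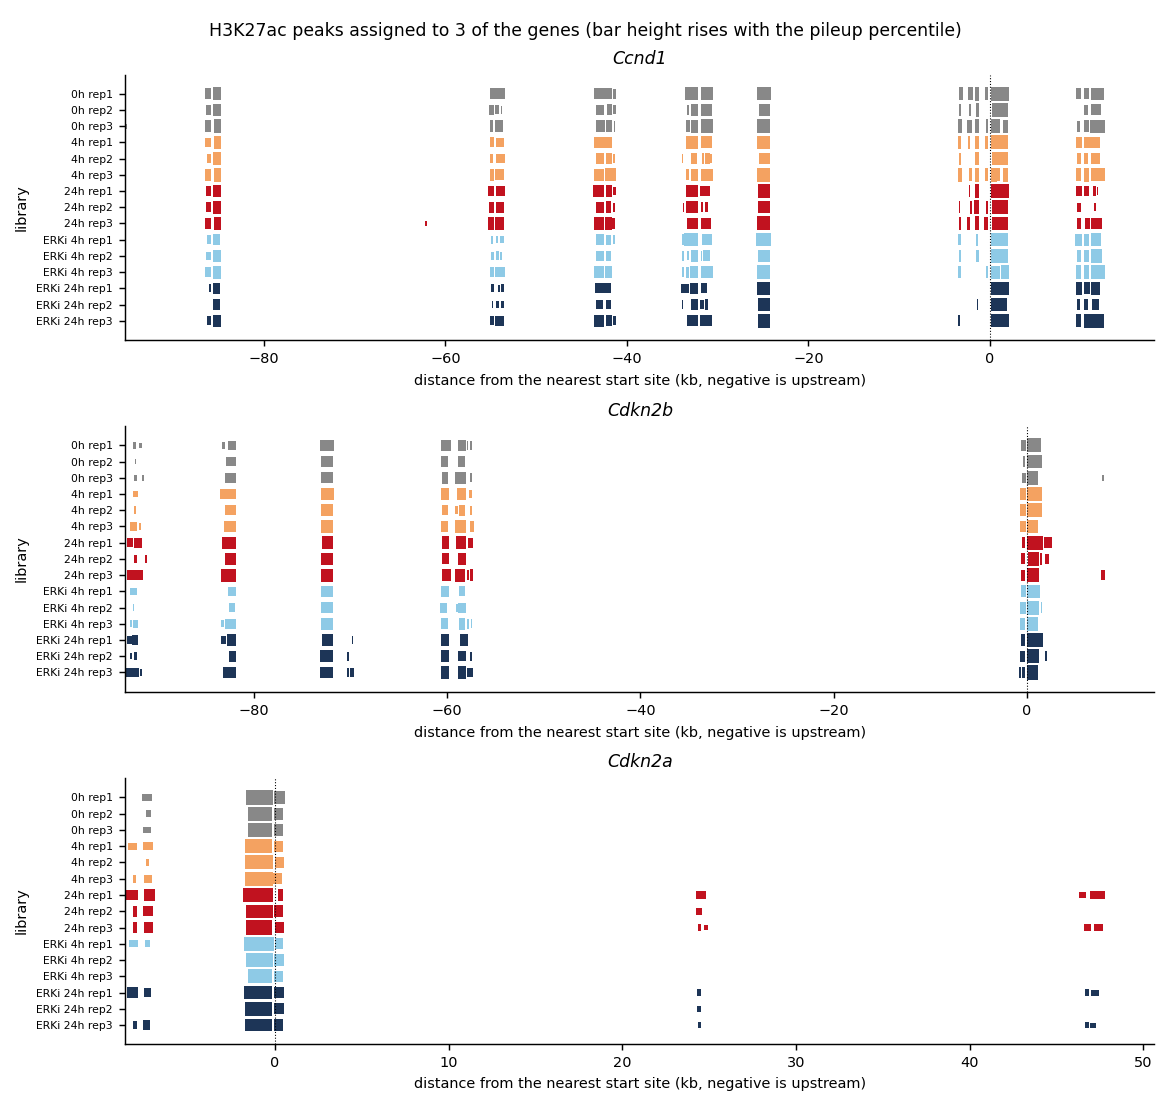
Peaks given to Ccnd1, Cdkn2b and Cdkn2a in each of the 15 libraries (rows, coloured by condition) by distance from the nearest start site in kb (horizontal axis, negative is upstream); bar height rises with the pileup percentile. The Cdkn2a region at 24.4 kb appears in the 24h and ERKi 24h libraries only. The Ccnd1 peaks between -3.3 and -0.3 kb are called 10 times in the 24h libraries and 2 times in the ERKi 24h libraries. These peaks are low in fold enrichment, were grouped after their values were seen, and were not tested as a group.

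Cdkn1a and Cdkn1b, the p21 and p27 genes, had no region that passed in any comparison. The highest Cdkn1a region (chr17:29230787-29232499, in its intron 1.1 kb from a start site) had normalised pileups of 227, 218 and 237 at 0h, 253, 252 and 257 at 4h, and 220, 229 and 257 at 24h, and 236 to 289 in the ERKi libraries. The 4h libraries lay above the 0h libraries, and the difference of 0.16 on the log2 scale (SE 0.14) did not pass. By fold enrichment the highest peak within 2500 bp of a Cdkn1a start site went the other way. Its percentiles were 81.7, 82.2 and 84.7 at 0h and 73.8, 76.2 and 80.0 at 4h, without overlap and with no test. The highest Cdkn1b region (chr6:134876722-134878594, 6.8 kb downstream of the start site) had 289, 245 and 255 at 0h, 249, 213 and 219 at 24h, and 226, 210 and 189 at ERKi 24h. These groups overlapped at 24h against 0h and at ERKi 24h against 24h.

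Among the cyclins, Ccnd1 had the most peaks, 265 of the 981, and most of the changed regions. Ccnd1 encodes cyclin D1, a target of ERK signalling (chr7:152115836-152125774, minus strand), and had 16 regions, 8 of them in all libraries. In the intergenic region 31.0 kb upstream (chr7:152156257-152157725), normalised pileups were 123, 98.5 and 146 at 0h, 94.1, 66.3 and 91.0 at 4h, and 51.9, 54.2 and 75.3 at 24h. With the inhibitor they were 76.2, 64.3 and 105 at 4h and 47.4, 65.8 and 66.5 at 24h. Every library at 4h and 24h without the inhibitor lay below every 0h library. The region fell at 24h by 1.02 on the log2 scale (SE 0.23, limma adjusted p = 0.00542) and the difference at 4h was -0.55 (SE 0.23), which passed with the replicate block only (adjusted p = 0.0255). Its difference at ERKi 24h against 24h was -0.01.

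The adjoining region 32.6 kb upstream (chr7:152157895-152159772) had 145, 92.6 and 113 at 0h and 73.9, 80.6 and 75.3 at 24h, and fell by 0.59 (SE 0.19, limma adjusted p = 0.0438). By fold enrichment the 31.0 kb region differed by -0.09 at 24h (adjusted p = 0.759) and the 32.6 kb region by 0.35, in the opposite direction (adjusted p = 0.244). By fold enrichment a further region, 24.5 kb upstream, rose at 24h by 0.49 (adjusted p = 0.0199), where its difference by pileup was 0.22 (adjusted p = 0.76). The call at 32.6 kb was kept in 5 of 15 fits that left out a library, with adjusted p from 0.0218 to 0.206, and that at 31.0 kb in 15 of 15. The former was lost without replicate 1 or 3 of 0h, replicate 3 of 4h or ERKi 4h, or any library of 24h or ERKi 24h.

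The region 54.9 kb upstream of Ccnd1 (chr7:152179229-152181061) was lower with the inhibitor. Normalised pileups were 59.3, 70.1 and 92.9 at 24h and 26.8, 23.8 and 45.4 at ERKi 24h, with no overlap, and 52.7, 49.0 and 75.7 at 4h against 29.6, 40.1 and 41.3 at ERKi 4h, again with none. At 0h they were 59.0, 51.8 and 85.6. The region fell at ERKi 24h against 24h by 1.25 (SE 0.27, limma adjusted p = 0.00947), and by 0.67 at ERKi 4h against 4h with the replicate block only (adjusted p = 0.0151). By fold enrichment the difference at 24h was -0.21 (adjusted p = 0.453). Without ERKi 24h replicate 2 the adjusted p was 0.0501. With the block, the regions 41.9 and 85.3 kb upstream also fell at ERKi 24h, by 0.55 (adjusted p = 0.00161) and 0.75 (adjusted p = 0.000918).

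One Ccnd1 region moved the other way. The region 11.4 kb downstream of the start site (chr7:152113060-152115434), beyond the end of Ccnd1 and in an intron of the neighbouring gene Oraov1, had normalised pileups of 88.3, 69.7 and 109 at 0h and 81.3, 79.4 and 134 at 4h. At 24h they were 44.8, 29.1 and 63.9 without and 111, 68.5 and 169 with the inhibitor. The 24h libraries lay below those at 0h, 4h and ERKi 24h. The region fell at 24h against 0h by 1.00 (SE 0.34, limma adjusted p = 0.0494) and rose at ERKi 24h against 24h by 1.31 (SE 0.34, adjusted p = 0.0236). Both comparisons rest on the same 24h libraries, and the calls were kept in 5 and 11 of 15 fits that left out a library, with adjusted p up to 0.189 and 0.113. The rise was lost without replicate 1 or 2 of 24h or replicate 1 or 3 of ERKi 24h, and the fall without any 0h library, replicate 1 or 2 of 4h, 24h or ERKi 4h, or replicate 1 of ERKi 24h. By fold enrichment the differences were -0.48 (adjusted p = 0.0481) and 0.43 (adjusted p = 0.122).

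Directly upstream of the Ccnd1 start site, 4 regions between -0.3 and -3.3 kb, grouped after their values were seen, were compared by their peak calls, with no test. Of 12 possible calls in each condition, 11 were made at 0h, 10 at 4h, 10 at 24h, 6 at ERKi 4h and 2 at ERKi 24h. The region 0.6 kb inside the gene, which had a peak in all 15 libraries, was not in the group. The region 2.2 kb upstream (chr7:152127693-152128289) had a peak in 3 of 3 libraries at 0h and 24h and 2 of 3 at 4h, at pileup percentiles of 75.0 to 84.8, and in 0 of 3 at ERKi 4h and ERKi 24h. It was the only member region with a peak in every 24h library and no ERKi 24h library, a pattern found in one direction or the other in 2.7% of all regions. No member region had such a pattern at 4h against 0h or at ERKi 4h against 4h, where 1.55% and 0.536% of all regions did.

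These Ccnd1 peaks stood high in pileup and low in enrichment. The 8 peaks in the region 2.2 kb upstream had fold enrichments of 1.60 to 2.05, at percentiles of 0.160 to 1.98 within their libraries, so that they were among the least enriched peaks the caller kept. A library without a peak there may still carry a high pileup, which the files do not list. The highest region at the Ccnd1 gene, 0.6 kb inside it, did not pass at ERKi 24h by pileup, with 158, 136 and 146 at 24h and 125, 153 and 118 at ERKi 24h, and by fold enrichment it rose by 0.55 (adjusted p = 0.0217).

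Ccne1, which encodes cyclin E1 (chr7:38883003-38892553, minus strand), had 6 regions, 4 of them in all libraries. Its promoter region 0.4 kb upstream (chr7:38892747-38893458) had normalised pileups of 78.4, 69.7 and 85.6 at 0h. After 4h they were 71.0, 61.6 and 62.4 without and 48.2, 52.5 and 36.0 with the inhibitor, and after 24h 58.5, 54.2 and 41.4 without and 29.7, 23.8 and 16.6 with it. Every ERKi 24h library lay below every other library. The region fell at ERKi 24h against 24h by 1.16 (SE 0.21, limma adjusted p = 0.00373), a fold of 2.24, and the call held by fold enrichment (-0.61, adjusted p = 0.0255) and in 15 of 15 fits that left out a library. At 24h against 0h the difference was -0.61 (SE 0.21, adjusted p = 0.0612), which passed with the replicate block (adjusted p = 0.00707). The second promoter region, 0.1 kb upstream, fell by 0.83 at ERKi 24h with the block only (adjusted p = 0.000931).

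An intergenic region 29.8 kb downstream of the Ccne1 start site rose at 24h. Its normalised pileups ranged from 18.6 to 31.5 at 0h and were 20.7, 14.8 and 24.7 at 4h. At 24h they were 40.1, 44.7 and 39.5 without and 43.7, 23.8 and 44.7 with the inhibitor. The 24h libraries lay above all 0h and 4h libraries. The rise was 0.89 (SE 0.29, limma adjusted p = 0.0408), kept in 8 of 15 fits that left out a library and lost, with adjusted p up to 0.147, without replicate 1 or 2 of 0h, replicate 1 of 4h or ERKi 4h, or any 24h library. By fold enrichment it was 0.46 (adjusted p = 0.31). Ccnd2, which encodes cyclin D2 (chr6:127075797-127101066, minus strand), had 1 region in all libraries, 1.5 kb inside the gene, with 178, 241 and 175 at 0h and 132, 196 and 135 at 24h. These overlapped, and the fall of 0.37 passed with the replicate block only (adjusted p = 0.0251). By fold enrichment the highest peak within 2500 bp of the Ccnd2 start site went the other way, with no test. Its mean percentile was 76.7 at 0h and 90.0 at 24h, where the groups overlapped, and 96.7 at ERKi 24h.

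**Figure D5:**
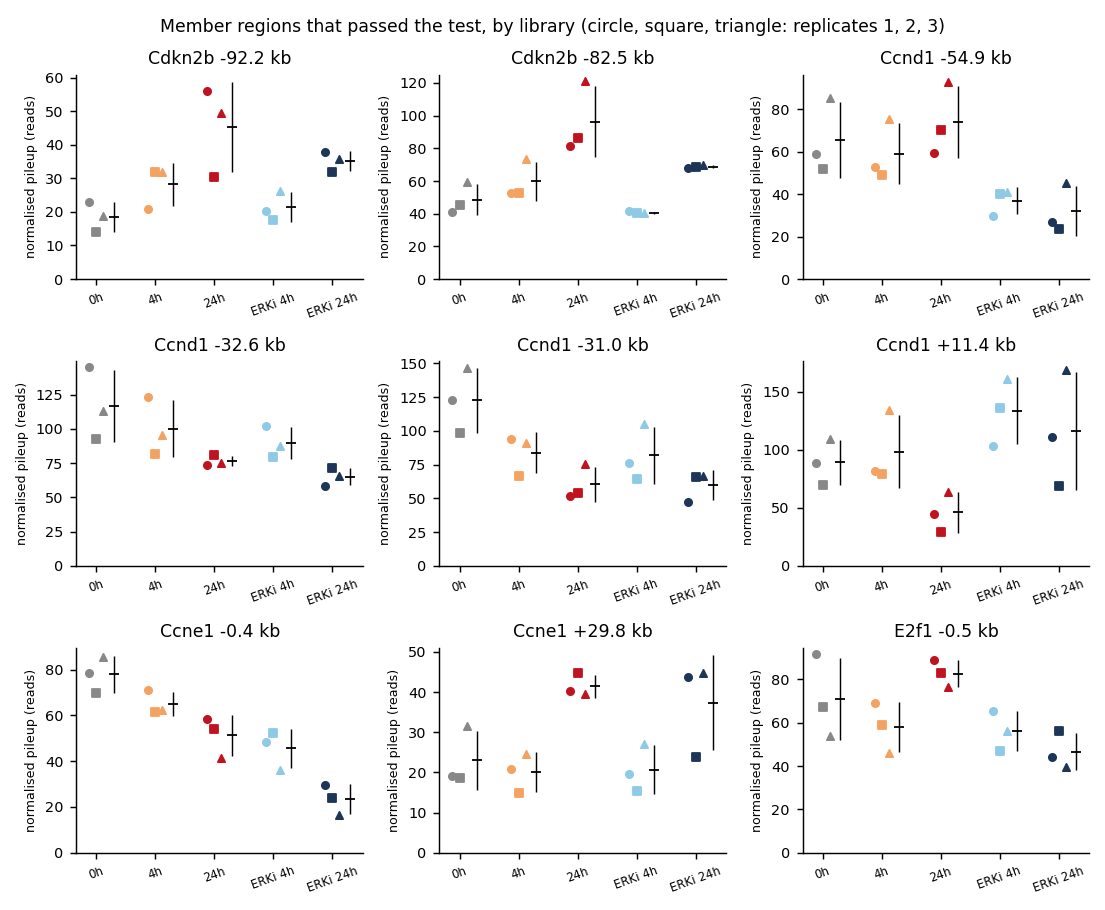
Normalised pileup in reads (vertical axis, from 0) of the 9 member regions that passed in a comparison, by condition (horizontal axis); circles, squares and triangles are replicates 1, 2 and 3, and the bar beside them is the mean with its SD. The Cdkn2b regions are highest at 24h, the Ccnd1 regions at -31.0 and -32.6 kb are highest at 0h, and the Ccne1 promoter region at -0.4 kb is lowest at ERKi 24h.

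Of the transcription factors, E2f1 had 1 region that was lower with the inhibitor, at 24h. E2f1, an activator of S phase genes (chr2:154385143-154395628, minus strand), had 2 regions, both at its start site and both in all libraries. The one 0.5 kb upstream (chr2:154395865-154397018) had normalised pileups of 91.7, 67.3 and 54.0 at 0h. After 4h they were 69.1, 59.1 and 46.2 without and 65.6, 46.8 and 56.2 with the inhibitor, and after 24h 88.8, 82.9 and 76.4 without and 44.4, 56.3 and 39.4 with it. The 24h libraries lay above all ERKi 24h libraries and overlapped those at 0h. The region fell at ERKi 24h against 24h by 0.84 (SE 0.22, limma adjusted p = 0.0252). The call was kept in 11 of 15 fits that left out a library, lost without replicate 1 or 2 of 24h or replicate 1 or 3 of ERKi 24h (adjusted p up to 0.105), and not made by fold enrichment (-0.46, adjusted p = 0.161). At ERKi 4h against 4h its difference was -0.04. The other region, 0.1 kb inside the gene, had differences of 0.11 at ERKi 4h and -0.23 at ERKi 24h (adjusted p = 0.768), and the promoter as a whole, above, passed at ERKi 24h with the replicate block only.

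Myc (chr15:61816946-61821929, plus strand) had 19 regions, of which 7 were called in a single library and 6 in all. The strongest, 0.4 kb inside the gene (chr15:61817158-61818649), had 265, 276 and 218 at 0h and 242, 241 and 177 at 4h. After 24h the values were 278, 306 and 200 without and 262, 308 and 231 with the inhibitor. The groups overlapped in each comparison. Of the 3 Myc regions in the neighbouring non-coding gene Pvt1 that had a peak in all libraries, at 50.7, 56.2 and 92.3 kb, the one at 50.7 kb fell by 0.53 at ERKi 24h with the replicate block only (adjusted p = 0.00713), from 62.7, 78.2 and 48.4 to 49.0, 41.3 and 38.6. No Myc region passed at 4h or 24h of TGF-β.

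Cdc25a (chr9:109778083-109796392, plus strand) had 4 regions. The one in all libraries, 0.2 kb inside the gene (chr9:109778042-109779921), had 156, 104 and 110 at 0h, 138, 99.4 and 113 at 24h, and 108, 138 and 89.1 at ERKi 24h. The groups overlapped in each of these comparisons, and its log2 differences were -0.07 at 24h against 0h and -0.08 at ERKi 24h against 24h.

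A further 48 genes of the cell cycle, chosen for their function and including mitotic genes such as Ccnb1, held 104 of the regions tested, given to 43 of them. At 4h against 0h, 2 of the 104 rose and 2 fell, which is 3.85% beside the 3.9% of all regions. At 24h against 0h, 6 rose and 11 fell, which is 16.3% beside the 18.6% of all regions. At ERKi 4h against 4h, 0 passed, and at ERKi 24h against 24h, 3 rose and 15 fell, which is 17.3% beside 8.61%. At 24h the lowest adjusted p of a fall was that of a region 24.6 kb from Rbl2, which encodes the pocket protein p130, at -1.85 (SE 0.20, limma adjusted p = 1.95e-05), and of a rise that 3.1 kb upstream of Fbxw7, which targets cyclin E and Myc for degradation, at 1.23 (SE 0.16, adjusted p = 8.15e-05). At ERKi 24h against 24h, the region at the start site of Ccnb1, a mitotic cyclin, fell by 1.52 (SE 0.24, adjusted p = 0.00137) and the one 35.8 kb upstream of E2f8, a repressive E2F factor, by 1.68 (SE 0.24, adjusted p = 0.000596), while the Rbl2 region rose by 1.10 (SE 0.20, adjusted p = 0.00285). None of the 24 promoters of this list that could be tested passed in any comparison. By number of distal peaks 20 genes of the list could be tested. Of these, 1 rose at 4h against 0h (Mcm6), which is 5% beside 1.4% of all genes tested. At 24h against 0h 3 rose, which is 15% beside 14.8%, and 0 passed in the ERKi comparisons.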

How the data were processed

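H3K27ac ChIP-seq of the 15 libraries was read from peak lists. Per the labels and the methods of the study, the authors aligned reads to mm9 with bowtie 0.12.9, processed alignments with samtools 0.1.19, and ran MACS2 2.0.10.20120913 at default parameters, library by library. The control used is not given in the sources used here. Each deposited list holds, for every peak, a score, a fold enrichment (a ratio), −log10 p and −log10 q values and the summit. The deposited score and −log10 q served only as a description and a filter.

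From each fold enrichment and −log10 p the whole number of reads at the summit (pileup) was solved, which failed for 25 of 893719 peaks at a tolerance of 0.005. Start sites came from the GENCODE annotation of mm9. Overlapping peaks were merged. Log2 pileups were quantile-normalised and fitted with limma 3.58.1 (R 4.3.3) over 5 conditions for 26934 regions and 4351 promoters with a peak in all libraries, and log2(number + 1) of distal peaks for 6439 genes with a mean of at least 2, with Benjamini-Hochberg adjustment at 0.05. Depth in reads is unknown, so no counting interval was computed. With 3 libraries a group, single values cannot give an exact p below 0.1 and were not tested. No 2 lists were alike (at most 0.00746% of peaks shared both ends).

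All conditions share replicate numbers 1 to 3. The labels do not say what a number marks, but in all 30 pairs of libraries with the same number the deviations from condition means correlated over 0.1 (0.304 to 0.786, against -0.683 to 0.366 for other pairs), so the numbers were taken to pair the samples. Blocked values are printed where they change a call.

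The text names all 10 genes, for each gene and comparison the regions that passed, every region called throughout one group and never in the other, the highest regions, and up to 2 genes of the cell-cycle list per direction. The genes, lists and tests were chosen with earlier results of these data known. A sequence window and a marker gene are not reported here. Scripts were tested on simulated data. Python 3.11.15 was used, with matplotlib 3.10.9.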

Additional observations from a re-analysis of the deposited data

How the results depend on the processing

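Peak lists give no value where no peak was called, so an absent peak limits what can be said of low regions, and pileup and fold enrichment need not move together. Blocking on the replicate number, which pairs the libraries, gave 1, 8, 3 and 10 called member regions at 4h against 0h, 24h against 0h, ERKi 4h against 4h and ERKi 24h against 24h, in place of 0, 6, 0 and 4, and 2 promoters in place of 0 at ERKi 24h. It changed no other call. At ERKi 24h, 2 regions passed by fold enrichment, 7 among regions with a peak in at least 8 libraries (3 of them, all of Ccnd1, through values filled in for ERKi 24h libraries without a peak), 2 with regions merged within 1000 bp and 0 with a −log10 q of at least 10, which left 1 at 24h against 0h and 0 genes by distal peaks (Cdkn2a then had too few to be tested). Start sites of all transcripts also gave 0 genes there. Over all regions at ERKi 24h against 24h, 180 rose and 182 fell of 26934 by fold enrichment, where 34 were member regions. Among regions with a peak in at least 8 libraries, 2312 rose and 2572 fell of 42715, with 47 member regions. Merging within 1000 bp gave 1078 and 1183 of 22813, with 27 member regions. A −log10 q of at least 10 gave 203 and 323 of 17594, with 22 member regions. For the genes whose groups did not overlap, fold enrichment and −log10 p percentiles gave 1 at 4h and 1 at 24h against 0h, and the 2500 bp window 1 at 4h against 0h, 2 at ERKi 4h and 4 at ERKi 24h. For distal peaks at ERKi 24h a −log10 q of at least 10 gave 0. Among promoter percentiles whose groups did not overlap and regions that passed, the differences that reversed were the promoter percentile of Cdkn2b at 4h against 0h within 2500 bp (-0.927), that of Cdkn1b at ERKi 24h by fold enrichment (-1.60) and the Ccnd1 region 32.6 kb upstream at 24h by fold enrichment (0.35). Of regions that did not pass by pileup, the Ccnd1 region 0.6 kb inside the gene went from -0.16 to 0.55 by fold enrichment at ERKi 24h against 24h (adjusted p = 0.0217) and the Cdkn2b region 0.3 kb upstream from 0.01 to -0.44 at 24h against 0h (adjusted p = 0.0118). In each of these settings the cause was not tested.

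Leaving out each library in turn gave 3 to 6 called regions at 24h against 0h and 2 to 4 at ERKi 24h. The fewest at 24h against 0h came without 0h replicate 1, 24h replicate 1 or 24h replicate 2, and at ERKi 24h without replicate 1 or 2 of 24h or replicate 1 or 3 of ERKi 24h. Regions with a peak in one group only numbered 0 to 4, 1 to 5, 0 to 1 and 1 to 4 in the 4 comparisons in order. Genes whose promoter percentiles did not overlap numbered 2 to 5 at 4h against 0h, 0 to 2 at 24h against 0h and 1 to 3 at ERKi 4h, and by distal peaks 0 to 2, 1 to 2, 1 to 2 and 1 to 2. Fewer libraries make both patterns easier to meet. Of the other 317 counts none moved by more than 1.5 times. Member regions split by direction moved more at 24h against 0h. With a limit of 50 kb, or with the start sites of all transcripts, 1 rose in place of 3, and 3 fell as before.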
